A study of Homo sapiens with 64 samples.

Results

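The genes described here are 38 components of the human DNA replication machinery, chosen by name as core licensing, helicase, polymerase, clamp and nucleotide-supply genes. Every probe set whose platform annotation gave a single member symbol was taken, which found 72 probe sets of 41091, and each gene was represented by its brightest probe set, 38 genes of 19775 tested. All 38 members were measured, and the dimmest, POLE, still had a mean signal of 624. A further 4 probe sets annotated to PRIM2 together with PRIM2BP, a near copy of it, were left out.

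DNA replication begins with licensing. The origin recognition complex (ORC) marks an origin, and CDC6 and CDT1 load the MCM2-7 ring, the core of the replicative helicase, onto DNA while the cell is in G1. In S phase MCM10, CDC45 and the GINS complex turn the loaded ring into an active helicase, the polymerases and primase synthesise DNA, and PCNA with its loader RFC, the single-strand binding protein RPA, FEN1 and LIG1 hold and finish the fork. RRM1, RRM2, TYMS and TK1 supply deoxynucleotides. Transcripts of many of these genes are known targets of E2F factors and peak around the G1/S boundary in dividing cells, whereas G2/M genes peak later in the cycle.

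The samples were 64 arrays of BEAS-2B, an immortalised human airway epithelial cell line, as 16 groups of 4 replicates. Cells had 3 days in keratinocyte serum-free medium (KSFM) with added epidermal growth factor, pituitary extract and antibiotics and then 24 h more in KSFM, and received vehicle, 10 nM indacaterol, 10 nM GSK 256066 or both drugs (Ind+GSK in the labels), and were harvested 1, 2, 6 or 18 h later. Indacaterol activates β2-adrenoceptors for many hours and so raises cyclic AMP, and GSK 256066 blocks phosphodiesterase 4, an enzyme that breaks cyclic AMP down. The 1 h arrays are the earliest used here, and time in culture, medium age and hours after vehicle cannot be told apart. The labels do not say whether replicates came from separate cultures, so the p-values speak only to the spread among these arrays, which may be technical. In a bulk sample, fewer cells of a type or cycle stage and less RNA per cell cannot be told apart.

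Median signal per array ran from 101.2 to 127.4. Among epithelial markers, KRT8 and KRT18 were high on all arrays (lowest signals 3048 and 5118). KRT19, KRT5 and LAMB3 were low outside replicate 3 (at most 115.8, 269.4 and 121.5). Of 5 mesenchymal markers VIM (at least 9574), COL1A1 (at least 5431) and PDGFRB (at least 797.5) were high and COL3A1 and DCN low (at most 160.2 and 243.4), and the epithelial adhesion genes EPCAM and CDH1 were low, with medians of 76.6 and 219. The 3 leukocyte markers did not exceed 119.1, and of 3 endothelial markers VWF and CDH5 did not exceed 98.6 while PECAM1 lay between 414 and 698.9. The arrays numbered replicate 3 stood apart in every group: their KRT14 signal was at least 265800, against at most 35.3 on all other arrays. KRT5 (at least 30130), KRT19 (at least 2287) and LAMB3 (at least 199.8) also lay above all other arrays there. So did CDH1 (at least 698.6 against at most 486.9) and ITGB4 (at least 1296 against at most 768), while KRT8, KRT18 and EPCAM overlapped. Over all times and treatments, 10 of 38 replication genes differed by more than 0.2 on the log2 scale between replicate 3 and the other numbers, led by GINS2 (0.47 higher) and TK1 (0.43 lower), against 0, 2 and 2 genes for replicates 1, 2 and 4. Replicate 4 stood apart in a different way, described below, at 18 h.

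Replication transcripts changed with time, and the fit described next called none for any drug. The drug comparisons held fewer arrays (4 against 4 or 8 against 8) than the pooled time comparisons (16 against 16). Differences are given as log2(signal + 16), from 1 limma fit to all 64 arrays, with Benjamini-Hochberg adjustment over 19775 genes, and a gene is said to have risen, fallen or been called where its adjusted p was below 0.05. With the 4 treatments averaged (16 arrays a time), 22 of 38 genes rose and none fell from 1 to 6 h, where 6.04% of all genes rose and 8.41% fell, and the median over the 38 genes was 0.17 against 0.00 over all genes. From 1 to 18 h 15 fell (39.5%) and 5 rose (13.2%), where 7.12% of all genes fell and 11.4% rose, so the share of rises was near that of all genes. From 1 to 2 h only RFC3 rose (0.24 ± 0.04 SE, adjusted p = 1.40e-04), with none lower, where 0.936% of all genes rose and 4.54% fell. The 16 arrays of a time share 4 replicate numbers. The fit takes them as independent, and its SEs and p-values do not allow for this sharing.

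**Figure D1:**
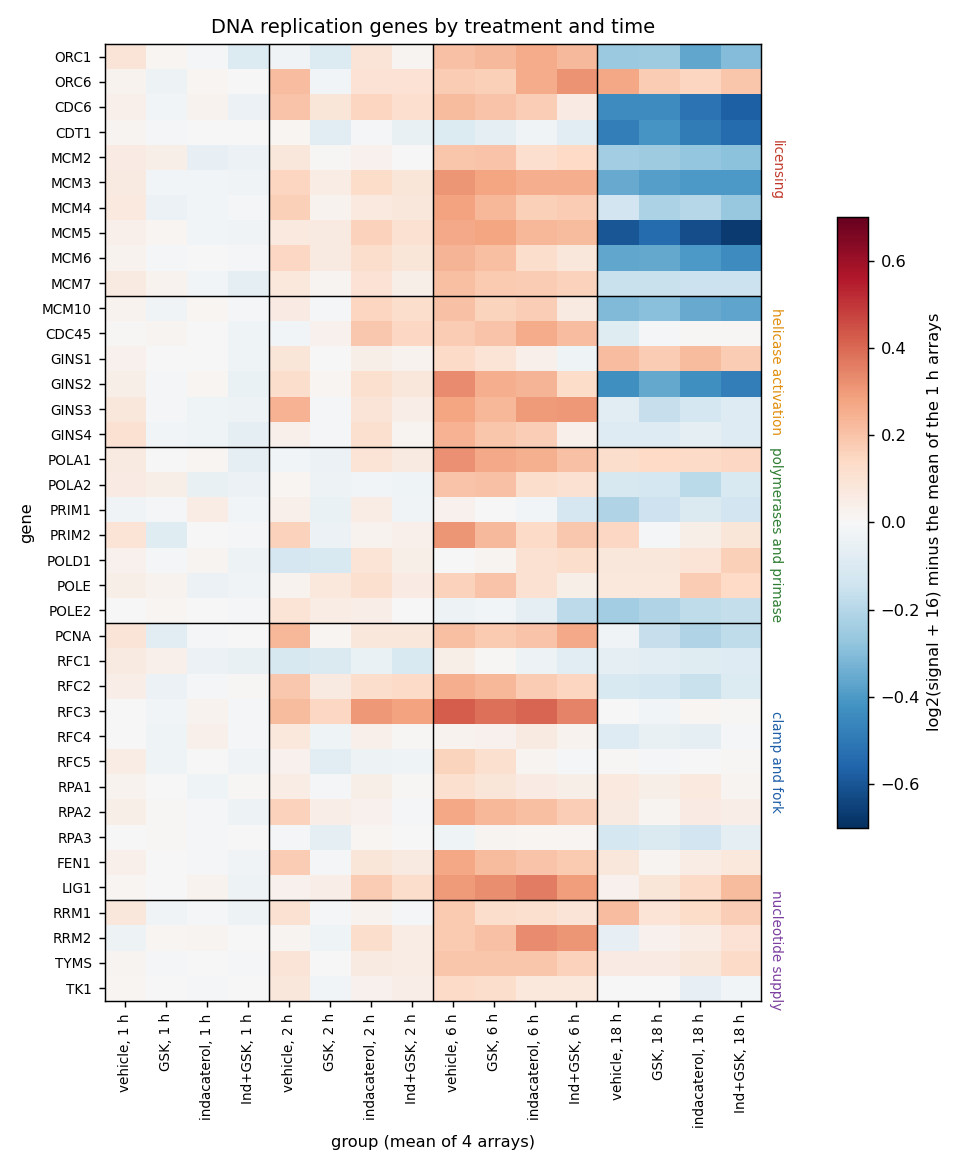
Difference of each of the 38 genes (rows, by role) from the mean of its 1 h arrays, on the log2(signal + 16) scale, in the 16 groups (columns, each the mean of 4 arrays). Red columns at 6 h and the blue block of licensing genes at 18 h recur under vehicle and under each drug.

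Among the 10 licensing genes, 6 rose at 6 h and 9 fell at 18 h, while ORC6 was higher at both times. MCM5, a subunit of the MCM2-7 ring, had the greatest fall of the 38. Its signal over 16 arrays ran from 3292 through a median of 4139 to 4909 at 1 h, from 4124 through 4746 to 5756 at 6 h, and from 1741 through 2824 to 3799 at 18 h. The 18 h arrays lay below every 6 h array and overlapped the 1 h range at its lower end. From 1 to 18 h it fell by 0.61 ± 0.09 (SE) on the log2 scale (adjusted p = 1.35e-06), and the level fell by 34.4%. Its 6 h value of 0.25 was not called (adjusted p = 0.0661). All 16 series of same-numbered, same-treatment arrays were higher at 6 than at 1 h. Counts of series, here and below, are descriptions and not tests. The series share replicate numbers, which did not count as pairing in the comparisons of all treatments with 1 h. The share of all genes with such counts is not given here, so they have no background beside them.

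CDC6, the ATPase that loads the ring together with ORC, was the only member whose 18 h arrays all lay below all 1 h arrays, as they did for 0.349% of all genes. Its signal ran from 2334 to 3326 with a median of 2846 at 1 h, and from 1717 to 2305 with a median of 1961 at 18 h. The difference was -0.49 ± 0.06 (SE), adjusted p = 8.39e-09. CDT1, the other loading factor, differed by -0.48 at 18 h (adjusted p = 9.53e-07), lower in 16 of 16 series, and unlike most of the set it had no rise at 6 h (-0.07, adjusted p = 0.677).

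The other ring subunits fell by unequal amounts at 18 h: MCM6 and MCM3 by 0.39, MCM2 by 0.26, MCM4 by 0.20 and MCM7 by 0.15, with adjusted p from 1.67e-07 (MCM3) to 0.00521 (MCM7). MCM3 and MCM6 were lower in 16 of 16 series, MCM2 in 15, and MCM4 and MCM7 in 14. The 6 subunits form a ring of equal parts, so the spread in their differences, from -0.61 to -0.15, is a spread in transcript change only. At 6 h MCM3 (0.27), MCM4 (0.21), MCM7 (0.18) and MCM2 (0.16) had risen, while MCM6 (0.16, adjusted p = 0.15) had not passed the threshold.

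The 2 ORC subunits among the members parted. ORC1, the subunit whose level changes through the cell cycle, rose by 0.23 at 6 h and fell by 0.29 at 18 h (adjusted p = 1.58e-04). ORC6, the smallest subunit, was 0.23 higher at 6 h and 0.20 higher at 18 h (adjusted p = 0.00286), higher in 15 of 16 series. Its signal ran from 2009 to 2753 at 1 h and from 2204 to 3146 at 18 h, so the groups overlapped over most of their range.

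**Figure D2:**
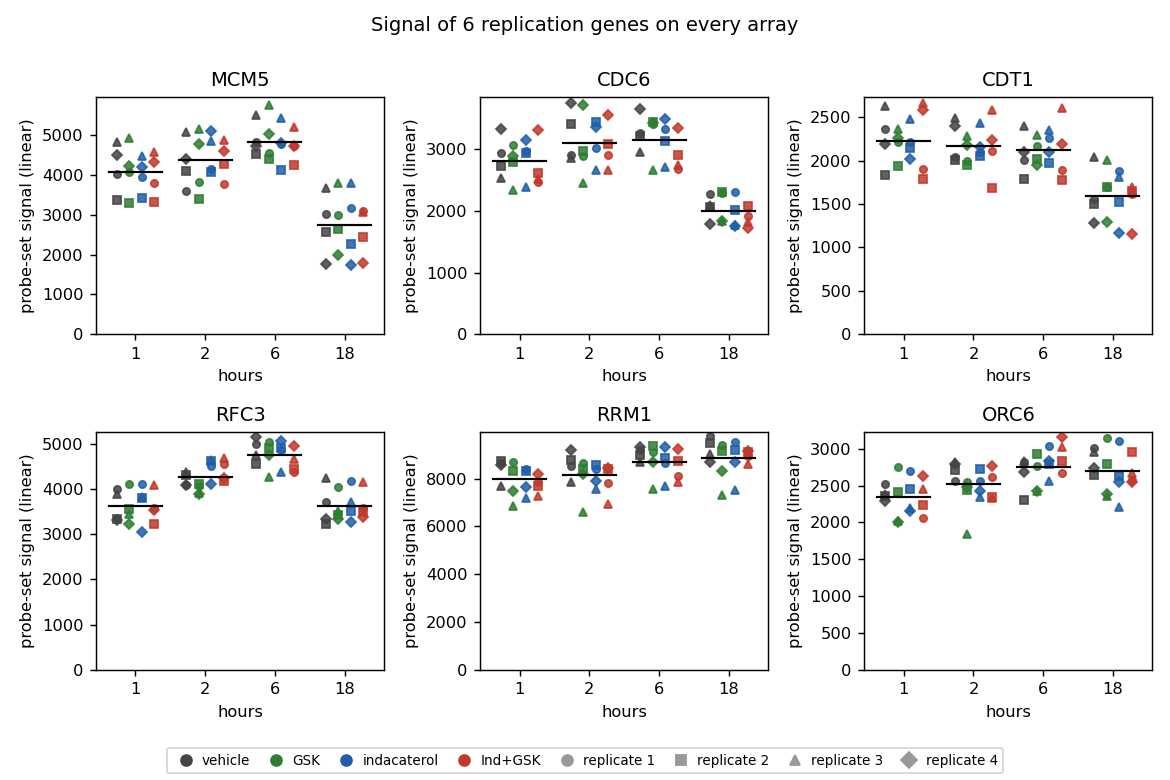
Linear probe-set signal on every array for MCM5, CDC6, CDT1, RFC3, RRM1 and ORC6 by hours of treatment; colours mark treatment, symbols the replicate number and black bars the mean of 16 arrays. The first 3 genes drop at 18 h, RFC3 is highest at 6 h and back at its 1 h level at 18 h, and diamonds (replicate 4) are the lowest MCM5 and CDT1 points at 18 h.

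Of 6 helicase activation genes, 4 rose at 6 h. At 18 h GINS2 (-0.43 ± 0.11 SE, adjusted p = 0.00293) and MCM10 (-0.33, adjusted p = 1.94e-06) fell, each in 16 of 16 series. MCM10 is a scaffold that joins the helicase at firing, and GINS2 is a subunit of the 4-part GINS complex. The subunits of that complex did not move as a unit: GINS1 rose by 0.20 at 18 h (adjusted p = 0.00546) and was higher in 16 of 16 series, GINS3 was at -0.11 (adjusted p = 0.0748) and GINS4 at -0.08 (adjusted p = 0.294). GINS1 signal had a median of 4766 at 1 h and 5488 at 18 h, and GINS2 signal a median of 2129 at 1 h and 1580 at 18 h. At 6 h GINS3 (0.28), CDC45 (0.21), GINS4 (0.16) and MCM10 (0.15) had risen, and CDC45, which completes the active helicase, was back at -0.02 at 18 h.

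Of the 7 polymerase and primase genes, 3 rose at 6 h, and 2 rose and 2 fell at 18 h. POLA1, the catalytic subunit of the polymerase that extends primers, rose by 0.26 at 6 h (adjusted p = 1.76e-05) and was still 0.14 higher at 18 h (adjusted p = 0.025). POLE, catalytic subunit of the leading-strand polymerase, rose by 0.13 and 0.12 at these times, and POLA2 rose at 6 h only (0.16, adjusted p = 0.0447). POLE2, the second subunit of that enzyme, and PRIM1, the primase catalytic subunit, were the genes of this role below 0 at both times: they were at -0.08 and -0.03 at 6 h, not called, and fell by 0.20 and 0.15 at 18 h. POLD1 (0.06 and 0.11) and PRIM2 (0.21 and 0.06) passed the threshold at neither time.

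**Figure D3:**
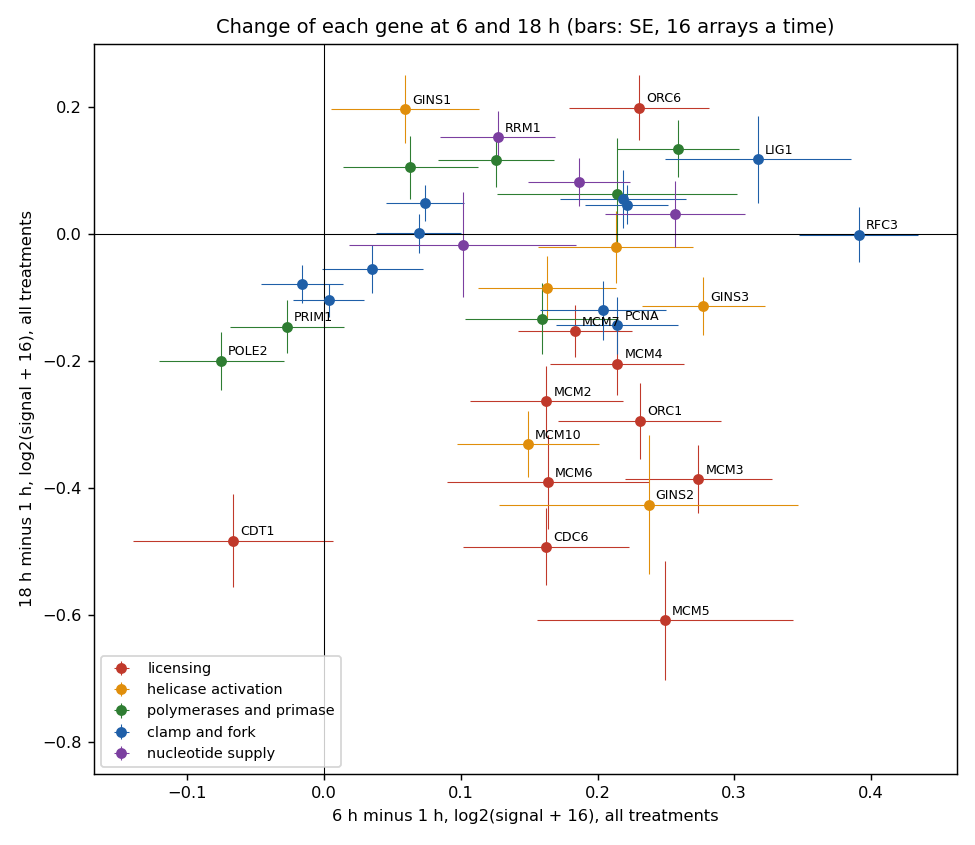
Log2(signal + 16) difference of each gene from 1 h at 6 h (horizontal axis) and 18 h (vertical axis), with SE bars, 16 arrays a time, coloured by role. Both axes share the 1 h arrays; licensing genes other than ORC6 lie below 0 at 18 h, between -0.15 and -0.61, whereas RFC3 lies far right at 6 h and at 0 at 18 h.

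Of the 11 clamp and fork genes, 6 rose at 6 h and none fell, a share like that of the licensing genes. RFC3, a subunit of the clamp loader, had the greatest rise of the 38 at 0.39 ± 0.04 (SE), adjusted p = 1.00e-09. With the mean of its 3 probe sets, of which a dim one went the other way, it was 0.18, below LIG1 and MCM3. RFC3 signal ran from 3056 to 4106 at 1 h, from 4268 to 5151 at 6 h and from 3214 to 4250 at 18 h. The 6 h arrays lay above every 1 h array, as for 0.116% of all genes, and above every 18 h array, and at 18 h the difference from 1 h was 0.00 (95% interval -0.09 to 0.09). Its partners in the 5-part loader differed: RFC2 rose by 0.20, while RFC1 (-0.02), RFC4 (0.04) and RFC5 (0.07) were not called at 6 h.

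LIG1, the ligase that seals lagging-strand fragments, rose by 0.32 at 6 h, and RPA2, FEN1 and PCNA each rose by 0.21 to 0.22. RPA2 encodes the middle subunit of the RPA trimer, and its partners RPA1 (0.07, adjusted p = 0.0763) and RPA3 (0.00) were not called. By 18 h PCNA (-0.14, adjusted p = 0.0161) and RPA3 (-0.10, adjusted p = 0.00233) had fallen, and the other 9 genes were not called.

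Among nucleotide-supply genes, RRM2 (0.26), TYMS (0.19) and RRM1 (0.13) rose at 6 h and none fell. RRM1, the large subunit of ribonucleotide reductase, was also higher at 18 h (0.15, adjusted p = 0.00563) and in 16 of 16 series. TK1, thymidine kinase, was at 0.10 at 6 h and -0.02 at 18 h, neither called.

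The direct comparison of 18 h with 6 h was added after these values had been seen. In it 27 of 38 genes were lower at 18 h and none higher, where 8.75% of all genes were lower and 15.5% higher, with a median of -0.21. The falls were greatest in MCM5 (-0.86 ± 0.09 SE), GINS2 (-0.66), MCM3 (-0.66) and CDC6 (-0.65), and all 16 arrays at 18 h lay below all 16 at 6 h for MCM5, MCM3, CDC6, ORC1, MCM10, MCM2, MCM7 and RFC3, 8 of 38 where 0.582% of all genes did so. Licensing held 9 of these falls in 10 genes, helicase activation 5 in 6, polymerases and primase 4 in 7, clamp and fork 7 in 11 and nucleotide supply 2 in 4.

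The size of the 18 h fall depended on the replicate number. The mean of the 10 licensing genes changed from 1 to 18 h from 11.69 to 11.55 in replicate 1, from 11.62 to 11.40 in replicate 2, from 11.71 to 11.53 in replicate 3, and from 11.81 to 11.13 in replicate 4, each a mean of 4 treatments on the log2 scale. Thus all numbers were lower at 18 h, and replicate 4 by far the most: MCM5 changed by -0.37, -0.44 and -0.39 in replicates 1, 2 and 3 and by -1.24 in replicate 4. Without replicate 4, 9 genes were lower and 8 higher at 18 h than at 1 h, where 2506 of all genes were called in either direction. MCM5 (-0.40), CDC6 (-0.38), CDT1 (-0.35), MCM3 (-0.23), MCM6 (-0.22), MCM10 (-0.21), ORC1 (-0.16), POLE2 (-0.13) and RPA3 (-0.11) were the lower ones, and GINS2 (-0.25), MCM2 (-0.13), MCM4 (-0.11), MCM7 (-0.05), PRIM1 (-0.10) and PCNA (-0.08) were no longer called. LIG1 (0.22), TYMS (0.13) and RPA2 (0.09) then joined the 5 higher genes. Without replicate 4, 17 members in place of 27 were lower at 18 than at 6 h, where 3485 of all genes were called. Without replicate 2, 14 members in place of 22 rose at 6 h, where 1910 of all genes were called. MCM2, MCM10, ORC1, CDC45, GINS4, POLA2, POLE and RRM1 were then no longer called. The 5 rises at 18 h depended on the numbers kept. Without replicate 1 only ORC6 was still called higher (GINS1, RRM1, POLA1 and POLE were not), and without replicate 2 RRM1, POLA1 and POLE were not. In each case 15 members were called lower at 18 h, and 2696 and 2577 of all genes were called. Without replicate 1, MCM2, MCM10, POLA2, POLE and RRM1 were not called at 6 h, nor without replicate 4 GINS4, POLA2, POLE and RRM1. Without replicate 3, which stood apart on keratins, 20 members were higher at 6 h, and 16 lower and 3 higher at 18 h. Of all genes, 3166 and 4408 were then called at these times. MCM2, MCM10 and ORC1 at 6 h and POLA1, POLE and RPA3 at 18 h were not.

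**Figure D4:**
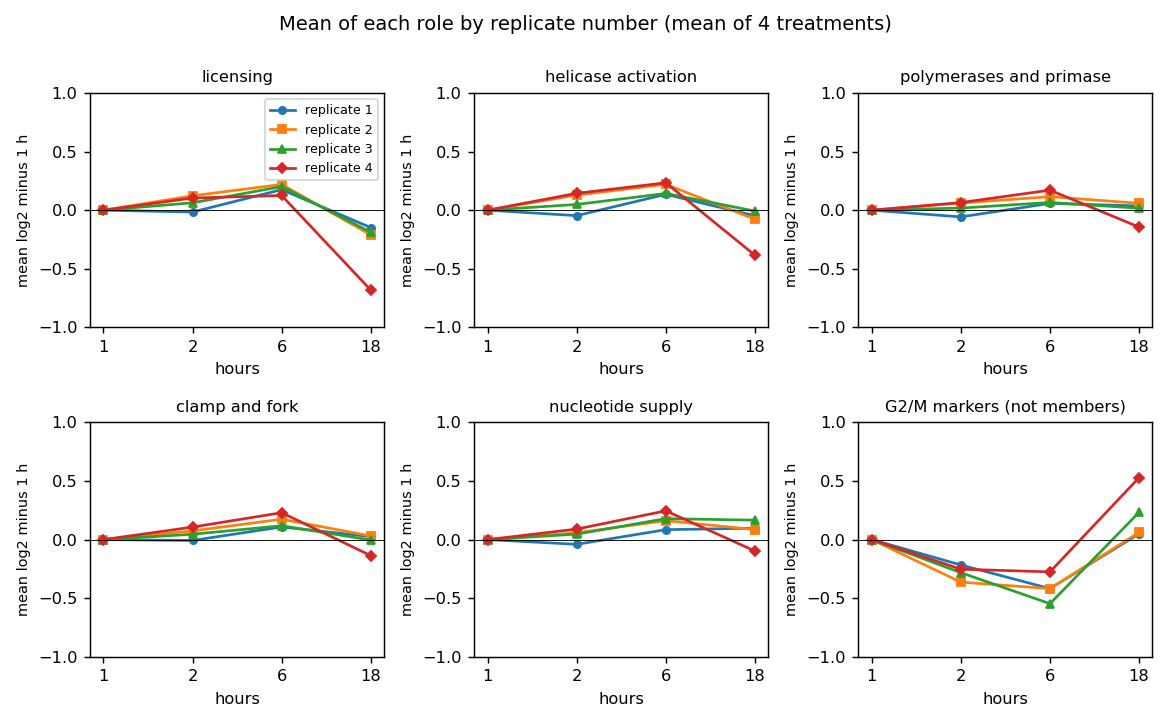
Mean log2(signal + 16) of the genes of each role, minus its own 1 h value, at 1, 2, 6 and 18 h for each replicate number (mean of 4 treatments), with the 12 G2/M markers, which are not members, in the last panel. Replicate 4 has the greatest licensing fall and the greatest G2/M rise at 18 h.

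Markers of G2 and mitosis moved the other way at the same times. From 1 to 6 h 9 of 12 fell and none rose, among them BUB1 (-0.70) and PLK1 (-0.68), mitotic kinases, and CCNB2 (-0.61, or -0.16 with the mean of all its probe sets), a mitotic cyclin. From 1 to 18 h 7 rose and none fell, led by the kinases AURKB (0.67) and CDK1 (0.41) and the spindle motor KIF11 (0.33), and from 6 to 18 h all 12 rose. Their mean rose from 1 to 18 h from 11.98 to 12.03 in replicate 1, from 11.96 to 12.02 in replicate 2, from 11.83 to 12.07 in replicate 3 and from 11.68 to 12.21 in replicate 4, so the number with the greatest fall in licensing genes also had the greatest rise here. Without replicate 4, MKI67, PLK1, CENPF and CDCA8 were no longer called at 18 h, and without replicate 3 PLK1 and CDCA8 were not. The part of cycle stage in the replication gene values was not tested.

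Among regulators of G1/S entry, the cyclins CCNE1 (0.40) and CCNE2 (0.37) were among 4 of 26 that rose at 6 h, with E2F5 (-0.29) the only one to fall, a call that ended without replicate 1, 2 or 4 or with the mean of all probe sets (adjusted p from 0.0577 to 0.374). At 18 h 7 of 26 fell, led by the transcription factors E2F2 (-0.65) and E2F1 (-0.57) and by CCNE1 (-0.48), and 4 rose, led by CCNA2 (0.35), E2F7 (0.33) and MYBL2 (0.26), a share near the 11.4% of all genes. Without replicate 4 the falls were smaller, at -0.36 for E2F2, -0.34 for E2F1 and -0.24 for CCNE1.

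Of 32 other replication factors, 9 rose and 1 fell at 6 h, where 6.04% of all genes rose and 8.41% fell. At 18 h 12 of the 32 rose and 3 fell, where 11.4% of all genes rose and 7.12% fell. The share of falls among these factors at 18 h was near that of all genes. Those that rose most at 18 h were TICRR (0.64), which helps load CDC45, DBF4 (0.46), the activator of the CDC7 kinase that fires origins, and TOP2A (0.31), a topoisomerase that was not called without replicate 4 (0.24, adjusted p = 0.0811). Those that fell were the fork protector TIPIN (-0.50), ORC5 (-0.17) and the MCM-binding protein MCMBP (-0.16), which was not called without replicate 1, 3 or 4 (adjusted p from 0.0875 to 0.198). Among 17 measured genes of nucleotide supply and chromatin assembly, 10 rose at 6 h, and at 18 h 7 fell, led by UNG (-0.55), UHRF1 (-0.39) and CHAF1B (-0.32), and 4 rose. Among 10 checkpoint and repair genes 4 rose at 6 h, led by EXO1 (0.50), and at 18 h WEE1 (0.33), RAD51AP1 (0.26) and FANCI (0.24) rose while MSH6 (-0.36) and XRCC2 (-0.22) fell. RAD51AP1 was not called without replicate 1, 2 or 4 (adjusted p from 0.0889 to 0.335). Some genes of these lists were not analysed here.

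Vehicle alone, with 4 arrays a time, gave 2 called members at 6 h and 2 at 18 h, and its arrays are also among those averaged above. MCM3 signal in replicates 1 to 4 was 4598, 4776, 4644 and 5890 at 1 h and 4051, 3656, 4256 and 3021 at 18 h. CDC6 signal was 2939, 2733, 2535 and 3326 at 1 h and 2278, 2070, 2102 and 1796 at 18 h. Neither gene's groups overlapped, and 6 members and 3.87% of all genes were lower without overlap. Only MCM3 and CDC6 were called among the members, MCM3 lower by 0.41 (adjusted p = 0.0304) and CDC6 by 0.48 (adjusted p = 0.0238). No member rose, while 1.02% of all genes fell and 0.571% rose. MCM5 signal was 4024, 3379, 4809 and 4484 at 1 h and 3028, 2559, 3656 and 1770 at 18 h, with overlap, and its difference of -0.63 was not called (adjusted p = 0.0721). With replicate number as a block, which the arrays of this comparison bore out, 9 members fell and 1 rose at 18 h. MCM3, MCM5, MCM6, MCM10, GINS2, CDC6, CDT1, ORC1 and POLE2 were lower and GINS1 higher. The shares of all genes given above are from the fit without the block, so these counts have no background beside them. Without replicate 4, MCM3 was at -0.23 (adjusted p = 0.282) and CDC6 at -0.34 (adjusted p = 0.299). The unblocked 18 h count hung on single arrays: it was 0 without replicate 2 or 4 at 18 h or replicate 4 at 1 h, 1 without replicate 1 at 1 h, and 4 without replicate 3 at 18 h.

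At 6 h under vehicle, RFC3 and RPA2 rose, where 0.147% of all genes rose and 1.07% fell. RFC3 signal was 3998, 3342, 3894 and 3319 at 1 h and 4987, 4559, 4740 and 5151 at 6 h, a rise of 0.42 ± 0.09 (SE, adjusted p = 0.00476). RPA2 signal was 4220, 4153, 3990 and 4495 at 1 h and 5010, 4916, 4935 and 4907 at 6 h, a rise of 0.23 ± 0.06 (SE, adjusted p = 0.0398). All 6 h arrays lay above all 1 h arrays for both genes, among 7 such members, where 2.69% of all genes did so, and 33 of 38 members had a value above 0. The count fell to 1 when any of 7 of the 8 vehicle arrays was left out. At 2 h no member was called by limma, 2 had an unadjusted p under 0.05, and 0.0961% of all genes rose and as many fell. RFC3 (0.22), ORC6 (0.19) and RFC1 (-0.17) had the greatest differences.

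Values were close in the 4 treatments. From 1 to 18 h MCM5 was between -0.64 and -0.55, CDC6 between -0.54 and -0.42, MCM3 between -0.41 and -0.37 and GINS1 between 0.17 and 0.22, and from 1 to 6 h RFC3 was between 0.36 and 0.42. Over the 16 group means, which share their times, the genes whose pattern was most like that of MCM5 were MCM6, GINS2, MCM3, MCM10 and CDC6 (Pearson r from 0.987 to 0.981), and the least like was GINS1 (-0.734).

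Promoter sequences were searched because the licensing genes moved together. RefSeq promoter windows (GRCh38.p14) were matched for 33 of 38 members, and exact matches on either strand were counted in the 250 bases before each gene's start. E2F-type octamers (TTTCGCGC, TTTGGCGC or TTTCCCGC) lay in 12 of 33 members and in 2.38% of 27305 promoters of the table. They lay in 6 of the 12 matched genes that fell at 18 h and in 6 of the other 21. The NF-Y element CCAAT lay in 19 of 33 (33.0% of all promoters), the CHR element (TTTGAA or TTCGAA) in 2 of 33 (14.6%), the full cyclic AMP response element (TGACGTCA) in 3 of 33 (1.77%) and TGACG, which the full element also holds, in 13 of 33 (21.7%). A match is a description of letters and not a bound site.

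The windows below show E2F-type matches in capitals, within 20 bases of flank, for genes that fell at 18 h. For contrast they also show RFC3, which rose at 2 and 6 h and not at 18 h, and POLA1, which rose at 6 and 18 h. MCM7 also holds a same-strand TTTCGCGC 9 bases before its start, which is not printed. All are printed 5′ to 3′ on the gene's strand. MCM6 holds a pair of nearly identical stretches, and in each the printed octamer is overlapped by an opposite-strand TTTCGCGC that begins 4 bases downstream.
MCM3, chr6:52284889-52284936, minus strand, 174 bases before the start: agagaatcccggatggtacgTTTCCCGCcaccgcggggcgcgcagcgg
MCM6, chr2:135876568-135876615, minus strand, 152 bases before the start: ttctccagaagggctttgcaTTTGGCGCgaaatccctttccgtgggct
MCM6, chr2:135876506-135876553, minus strand, 90 bases before the start: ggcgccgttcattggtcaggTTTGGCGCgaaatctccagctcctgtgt
MCM7, chr7:100101557-100101604, minus strand, 187 bases before the start: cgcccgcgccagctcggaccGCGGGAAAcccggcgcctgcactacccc
GINS2, chr16:85688958-85689005, minus strand, 31 bases before the start: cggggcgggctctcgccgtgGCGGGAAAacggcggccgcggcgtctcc
CDT1, chr16:88803734-88803781, plus strand, 35 bases before the start: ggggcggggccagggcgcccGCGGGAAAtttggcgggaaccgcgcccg
PCNA, chr20:5126654-5126701, minus strand, 59 bases before the start: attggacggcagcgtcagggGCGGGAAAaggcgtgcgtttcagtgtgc
RFC3, chr13:33818074-33818121, plus strand, 55 bases before the start: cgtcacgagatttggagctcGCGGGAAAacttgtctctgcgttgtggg
POLA1, chrX:24693761-24693808, plus strand, 137 bases before the start: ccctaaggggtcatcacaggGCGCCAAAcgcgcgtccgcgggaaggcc
The printed matches in MCM7, GINS2, CDT1, PCNA and RFC3 are the same octamer read on the opposite strand, so genes with different courses share these letters.

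Without a replicate block, no replication gene was called by limma for any drug. With indacaterol against vehicle, 0 of 38 were called at 1, 2, 6 and 18 h, where 0.212%, 1.22%, 0.268% and 0.00506% of all genes were, and 0, 2, 1 and 1 members had an unadjusted p under 0.05. With GSK 256066 alone 0 of 38 were called at each time, where 0.00506% of all genes were at 1 h and 0% at 2, 6 and 18 h, and 4 members had an unadjusted p under 0.05 at 2 h. With both drugs 0 of 38 were called, where 0.283%, 1.06%, 0.759% and 0.0354% of all genes were at 1, 2, 6 and 18 h, and 2 members at 2 h and 2 at 6 h had an unadjusted p under 0.05. Both drugs against indacaterol gave 0 calls among members and 0% of all genes at each time, with no member at an unadjusted p under 0.05, and the same held for the interaction of the drugs.

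**Figure D5:**
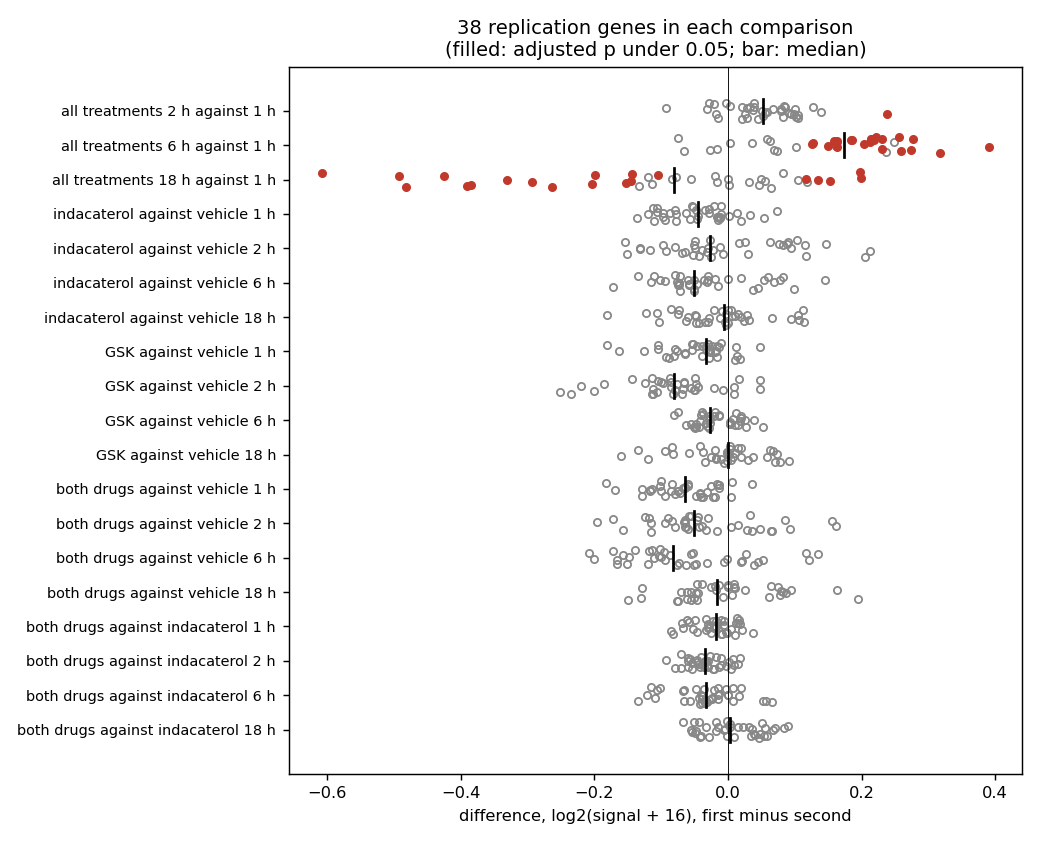
Log2(signal + 16) difference of the 38 genes (points) in 3 time comparisons and 16 drug comparisons, with black bars at the median; filled points have an adjusted p under 0.05. All drug comparisons lie between -0.25 and 0.21, with every point open, against -0.61 to 0.39 for the time comparisons.

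Pooling all arrays with indacaterol against all without it (8 against 8 at each time) gave the narrowest intervals, and again 0 of 38 were called, where 0.506%, 2.76%, 1.73% and 0.0303% of all genes were at 1, 2, 6 and 18 h. At 2 h, when the drug called most genes, the greatest member differences were POLD1 at 0.18 (95% interval 0.04 to 0.32, adjusted p = 0.199), CDC45 at 0.16 and ORC1 at 0.12. At 6 h they were RFC5 at -0.13 (95% interval -0.22 to -0.04, adjusted p = 0.129), RRM2 at 0.12 and MCM6 at -0.12. At 1 h MCM2 (-0.10), ORC1 (-0.10) and RFC1 (-0.10) and at 18 h LIG1 (0.12), CDC6 (-0.10) and PCNA (-0.10) led, all with adjusted p above 0.6. Taking all 38 genes and 4 times, the 95% intervals of this comparison reached as far as -0.42 and 0.34. For each gene, changes within its own interval were not excluded. At 6 h same-numbered arrays deviated from their group means together over all genes. With replicate number as a block, GINS1 (-0.11, adjusted p = 0.0396) and RFC5 (-0.13, adjusted p = 0.0446) were called at 6 h. GINS1 (-0.17, adjusted p = 0.0434) was also called with both drugs against vehicle at 6 h. With that block on replicates 1, 2 and 4, without the keratin-high replicate 3, none of these was called. The share of all genes called with the block is not given here, so the GINS1 and RFC5 calls have no background beside them. The indacaterol effect did not pass an F-test of a difference between times for any member, with none at an unadjusted p under 0.05, where 1.22% of all genes passed.

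Of the 32 other replication factors, 3 fell in the pooled indacaterol comparison at 2 h (DBF4, TICRR and CDC7), where 2.76% of all genes were called, and 1 fell (DBF4) against vehicle. DBF4 signal at 2 h in replicates 1 to 4 was 2456, 2301, 2588 and 2141 with vehicle, 1773, 1594, 1604 and 1383 with indacaterol, 2310, 2030, 1768 and 2051 with GSK 256066, and 1832, 1278, 1363 and 1577 with both drugs. All indacaterol and all combination arrays lay below all vehicle arrays. The difference was -0.58 for indacaterol (adjusted p = 0.00435) and -0.65 for the combination (adjusted p = 8.08e-04), and without replicate 2 neither was called (adjusted p = 0.0741 and 0.0856). These 2 comparisons share the vehicle arrays. In the pooled comparison it was at -0.13, -0.51, -0.09 and 0.04 at 1, 2, 6 and 18 h, called at 2 h (adjusted p = 7.09e-05), and the difference between times passed the F-test (adjusted p = 0.04).

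CDC7, the kinase that DBF4 activates, fell by 0.24 in the pooled comparison at 2 h (adjusted p = 0.0363), and TICRR by 0.24 (adjusted p = 0.0113). Neither was called with indacaterol or both drugs against vehicle at 2 h (adjusted p from 0.0941 to 0.242). Leaving out replicate 1, 3 or 4 ended both calls, and leaving out replicate 2 ended that of CDC7 (adjusted p from 0.0541 to 0.311 for CDC7 and from 0.07 to 0.253 for TICRR). CTPS1, which makes CTP, rose by 0.47 at 2 h (adjusted p = 6.01e-05).

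CDKN1C, a cyclin-dependent kinase inhibitor, rose by 1.54 ± 0.44 (SE) in the pooled comparison at 2 h (adjusted p = 0.0375). Its signal at 2 h in replicates 1 to 4 was 653, 389, 920 and 442 with vehicle and 3063, 834, 5384 and 818 with indacaterol, so replicates 1 and 3 carried most of the difference. The call ended without replicate 1, 2 or 4 (adjusted p from 0.0656 to 0.436). Mitotic genes CDCA8 (-0.58) and AURKA (-0.48) and the kinase WEE1 (-0.36) fell at 2 h, and at 6 h CDK4 (-0.15) and CCNB2 (-0.28) fell. AURKA was not called without replicate 2 or 4 (adjusted p = 0.121 and 0.0554) and WEE1 not without replicate 1, 2 or 4 (adjusted p from 0.0504 to 0.176). CDK4 was not called without replicate 1, 2 or 4 (adjusted p from 0.227 to 0.397) nor CCNB2 without any 1 number (adjusted p from 0.0865 to 0.298), and CCNB2 was at 0.033 with the mean of all probe sets.

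Other probe sets of the same genes mostly moved alike over time. With all 72 probe sets tested among 41091, 37 rose and 1 fell at 6 h, and 6 rose and 29 fell at 18 h. The share of all 41091 probe sets that was called is not given here, so these counts have no background beside them. Of 22 further probe sets with a mean signal of at least 500, 21 had the sign of the brightest at 6 h and 18 at 18 h. RRM2 was the main disagreement: its brightest probe set was at 0.03 at 18 h, and another of nearly equal signal (8725 against 9021) fell by 0.31 (adjusted p = 4.28e-06), so RRM2 has no settled direction at 18 h. A probe set of MCM10 was at -0.09 and one of GINS2 at 0.02 at 18 h, neither called, and a dim RFC3 probe set (mean signal 228) fell by 0.33 at 6 h where the other RFC3 probe sets rose.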

How the data were processed

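Probe-set intensities, on a linear scale, were used as the authors deposited them. The submitters' processing notes list PLIER and Transcriptome Analysis Console 4 without their order or settings. The number of arrays limits the precision. Of 54675 probe sets, 62 were controls, 41091 had 1 symbol, 1801 several and 11721 none, and gene IDs gave 41037 a current symbol. The scale log2(intensity + 16) understates changes of dim genes. The brightest probe set of each of 19775 symbols entered limma (3.58.1, R 4.3.3; 16 group means, 48 residual degrees of freedom, two-sided, Benjamini-Hochberg adjustment).

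Members, lists and motifs were chosen with earlier results of these data known. From other lists, called genes were named, up to 3 rises and 3 falls per list and comparison. The comparison of 18 with 6 h and the signs over series were added after values were seen.

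Replicate numbers recur in each group without a stated meaning. They counted as pairing where, over all genes, same-numbered arrays deviated from the means together (r above 0.1) for every pair of groups compared. This held in 19 of 31 comparisons, including vehicle at 6 and 18 h, and not for all treatments against 1 h or pooled indacaterol at 1 and 2 h (lowest r -0.17).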

Additional observations from a re-analysis of the deposited data

Results flagged for a closer look

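The means of the 5 roles in each group, and the vehicle signals of MCM5, CDC6, MCM3, RFC3 and RPA2, were screened for an array far from the other 3 of its group. Of 100 such tests 3 passed the critical value of 0.829 of Dixon's ratio (the gap to the nearest array over the whole range), which chance gives in about 5% of groups. With both drugs at 18 h the licensing mean was 11.48, 11.42, 11.46 and 11.10 on the log2 scale in replicates 1 to 4 (ratio 0.831), with replicate 4 the low one. With vehicle at 2 h the helicase activation mean was 10.776, 11.025, 10.999 and 11.044 (ratio 0.832), with replicate 1 the low one. MCM3 with vehicle at 1 h had a signal of 5890 in replicate 4 against 4598 to 4776 in the others (ratio 0.862), and its 18 h fall under vehicle starts from that value.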

How the results depend on the processing

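Counts of called members kept within 1.5 times for all treatments at 18 h against 1 h in all 13 settings (16 to 25), and were 0 in all settings for 16 of the 20 drug comparisons against vehicle, against indacaterol or with against without it, and for the interaction at each time. Vehicle counts rested on few arrays. The count of 2 at 6 h became 1 with median centring, with the mean of all probe sets or with the block on replicates 1, 2 and 4, and 0 with the groups of the comparison fitted alone. The count of 2 at 18 h became 1 with median centring, 0 with the groups alone, 10 with the replicate block and 8 with that block on replicates 1, 2 and 4. For all treatments at 2 h the count of 1 became 2 with a pseudocount of 64, with a signal filter of 100 or with the block on replicates 1, 2 and 4, and 3 with quantile normalization or the replicate block. Quantile normalization gave 1 call in place of 0 with both drugs at 2 and at 6 h and with against without indacaterol at 2 and at 6 h. The replicate block gave 1 call with both drugs at 6 h and 2 with against without indacaterol at 6 h. At 2 h it gave 1 with against without indacaterol (POLD1, also on replicates 1, 2 and 4), where the numbers do not pair the arrays. Shares of all genes called with the block are not given here, so its counts have no background beside them. Leaving out replicates or single arrays gave 0 to 2 for vehicle at 6 h, 0 to 4 for vehicle at 18 h, 1 to 2, 14 to 24 and 16 to 21 for all treatments at 2, 6 and 18 h, and 17 to 28 for 18 against 6 h. With the mean of all probe sets, 3 genes outside the members reversed: PCLAF was at -0.063 at 18 h against 1 h, POLD3 at -0.25 at 18 against 6 h and CCNB2 at 0.033 with against without indacaterol at 6 h. The cause of these changes was not tested. The protein motif search was not run, as no protein table was used here.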
